A study of Saccharomyces cerevisiae with 36 samples.

Results

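The genes described here are 10 genes of Saccharomyces cerevisiae that make or remodel the glucan and chitin of the cell wall: FKS1, GSC2 (also called FKS2), GAS1, BGL2, CRH1, UTR2, EXG1, SCW4, SCW10 and CHS3. They were chosen by their known roles, as a list of open reading frames, out of 6600 open reading frames counted. All 10 were among the 6017 that passed the low-count filter and were tested. Total RNA was sequenced from BY4742 cells of 4 strains, namely the wild type (WT), a strain deleted for MPK1 (mpk1Δ), a strain deleted for RRP6 (rrp6Δ) and a strain deleted for both (the double deletion). Cells grew to mid-log phase in YPD at 25 °C and were brought to 42 °C with pre-warmed medium for 10 or 45 min, with an unheated sample at 0 min. Each of the 12 groups had 3 libraries, lettered A, B and C, which the series design names biological replicates. BY4742 is a haploid laboratory strain, and the sources used here do not say how many clones of each deletion were sampled.

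The yeast wall is a mesh of glucan to which chitin and mannoproteins are attached. A glucan synthase in the plasma membrane spins out the main glucan chain, and enzymes outside the membrane then lengthen, branch, trim and cross-link it. Mpk1, listed as SLT2 in the annotation, is the kinase at the end of the cell wall integrity cascade, which wall stress and heat switch on and which acts partly through the transcription factor Rlm1. Rrp6 is a nuclease of the nuclear exosome, which trims and degrades RNA in the nucleus.

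The upstream sequences of 4 members are printed because they differ in which of the searched motifs they hold, and because these genes carry strain differences described below: the synthase pair GSC2 and FKS1, and BGL2 and UTR2, which departed from additivity in opposite directions. Each window runs from 250 bases before the first base of the reading frame to 50 bases after it, read from RefSeq build R64, on the strand of the gene and 5′ to 3′. Capitals mark a match to a searched motif.
GSC2, chrVII:548014-548313, plus strand: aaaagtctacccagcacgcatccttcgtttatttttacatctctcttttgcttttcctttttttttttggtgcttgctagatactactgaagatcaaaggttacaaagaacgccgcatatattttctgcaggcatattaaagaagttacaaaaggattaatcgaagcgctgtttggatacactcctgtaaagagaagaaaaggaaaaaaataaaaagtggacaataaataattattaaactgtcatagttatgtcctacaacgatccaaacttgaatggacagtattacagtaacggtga
FKS1, chrXII:809747-810046, plus strand: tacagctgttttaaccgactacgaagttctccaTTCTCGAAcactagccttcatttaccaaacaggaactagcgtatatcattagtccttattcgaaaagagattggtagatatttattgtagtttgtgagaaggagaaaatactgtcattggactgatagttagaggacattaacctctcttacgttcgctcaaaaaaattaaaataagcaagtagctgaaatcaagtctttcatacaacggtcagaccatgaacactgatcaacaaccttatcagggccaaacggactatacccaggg
BGL2, chrVII:1058675-1058974, minus strand: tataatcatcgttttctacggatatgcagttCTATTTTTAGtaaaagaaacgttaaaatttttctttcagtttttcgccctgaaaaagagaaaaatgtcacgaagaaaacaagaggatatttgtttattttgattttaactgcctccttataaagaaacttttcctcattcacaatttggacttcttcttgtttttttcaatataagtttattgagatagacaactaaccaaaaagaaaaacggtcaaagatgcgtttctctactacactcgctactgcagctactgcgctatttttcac
UTR2, chrV:77803-78102, plus strand: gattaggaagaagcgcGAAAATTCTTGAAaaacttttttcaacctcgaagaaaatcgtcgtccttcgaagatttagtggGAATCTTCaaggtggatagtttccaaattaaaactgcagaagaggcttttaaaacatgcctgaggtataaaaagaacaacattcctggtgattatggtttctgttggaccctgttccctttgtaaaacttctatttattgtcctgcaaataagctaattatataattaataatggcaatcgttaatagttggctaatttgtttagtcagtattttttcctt

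The motifs were searched on both strands in these windows of 6001 genes. The heat shock element, taken as GAANNTTC or TTCNNGAA, was in 22.6% of all windows and in 3 of the 10 members. In FKS1 it lay 217 to 210 bases before the start. UTR2 held 3 matches, of which 2 overlap and span 234 to 222 bases before the start and the other spans 171 to 164 bases before it. CRH1 held 1 match, 109 to 102 bases before its start. The Rlm1 consensus, a motif of 10 letters, was in 1% of all windows and in BGL2 alone among the members, 219 to 210 bases before the start. The stress response element AGGGG was in 21.6% of windows, the cell cycle boxes CACGAAA and ACGCGT in 4.2% and 3.07%, and the Crz1 element, taken as GNGGCTCA or GNGGCGCA, in 1.9%, and no window of a member held a match to any of these. The window of GSC2 therefore has no capitals. A match describes letters only, and a window without one says nothing of the factor.

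Counted reads ranged from 2235918 to 12072112 per library. SLT2 had 6 counts in all over the 18 libraries of strains lacking it and at least 111 in each other library, and RRP6 had 2 counts over its 18 deleted libraries and at least 40 in each other library. Reads aligned to several places made up 4.1% to 9.82% of all reads in strains carrying RRP6 and 9.2% to 26% in strains lacking it, and their part in the results was not tested. Libraries of a group correlated with r of at least 0.954 across genes, and the lowest values were those of heated double-deletion libraries B and C, so values of the heated double deletion whose call changes without letter C are also given without it. Levels are given as CPM, read counts set to a common library total after correction by TMM factors, which bring the bulk of genes to the same level in every library. A change is called where the adjusted p of edgeR's quasi-likelihood test, adjusted over all 6017 genes by the Benjamini-Hochberg method, lay under 0.05. The ± after a log2 fold change is its standard error in 1 fit of all 36 libraries, so the spread behind it is drawn from all 12 groups of 3. In a culture, less RNA of a gene in every cell and fewer cells with that RNA cannot be told apart.

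In unheated WT cells the remodelling enzymes were the abundant members and the synthase subunits the scarce ones. Per kilobase of gene, GAS1 stood at 1113 ± 11.1 CPM (SD, n = 3), followed by BGL2 at 899.7 ± 19.5, UTR2 at 633 ± 46.8, SCW10 at 516.7 ± 30.9, EXG1 at 469 ± 12, SCW4 at 376 ± 15.5 and CRH1 at 210.5 ± 3.27. FKS1 stood at 74.6 ± 10.1 CPM per kilobase, CHS3 at 35.1 ± 0.247 and GSC2 last at 6.07 ± 0.931. No neighbours in this order overlapped within their spread. After 45 min the order was BGL2, GAS1, GSC2, CRH1, UTR2, EXG1, FKS1, CHS3, SCW10 and SCW4, so that GSC2 moved from the last place to the third, at 209.6 ± 19.4 CPM per kilobase. Its range then overlapped that of GAS1 above it, and the ranges from EXG1 down to SCW4 overlapped from each gene to the next. The CPM of the 10 genes summed to 6178 ± 116 at 0 min, 2821 ± 89.4 at 10 min and 3121 ± 46.4 at 45 min in WT.

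**Figure D1:**
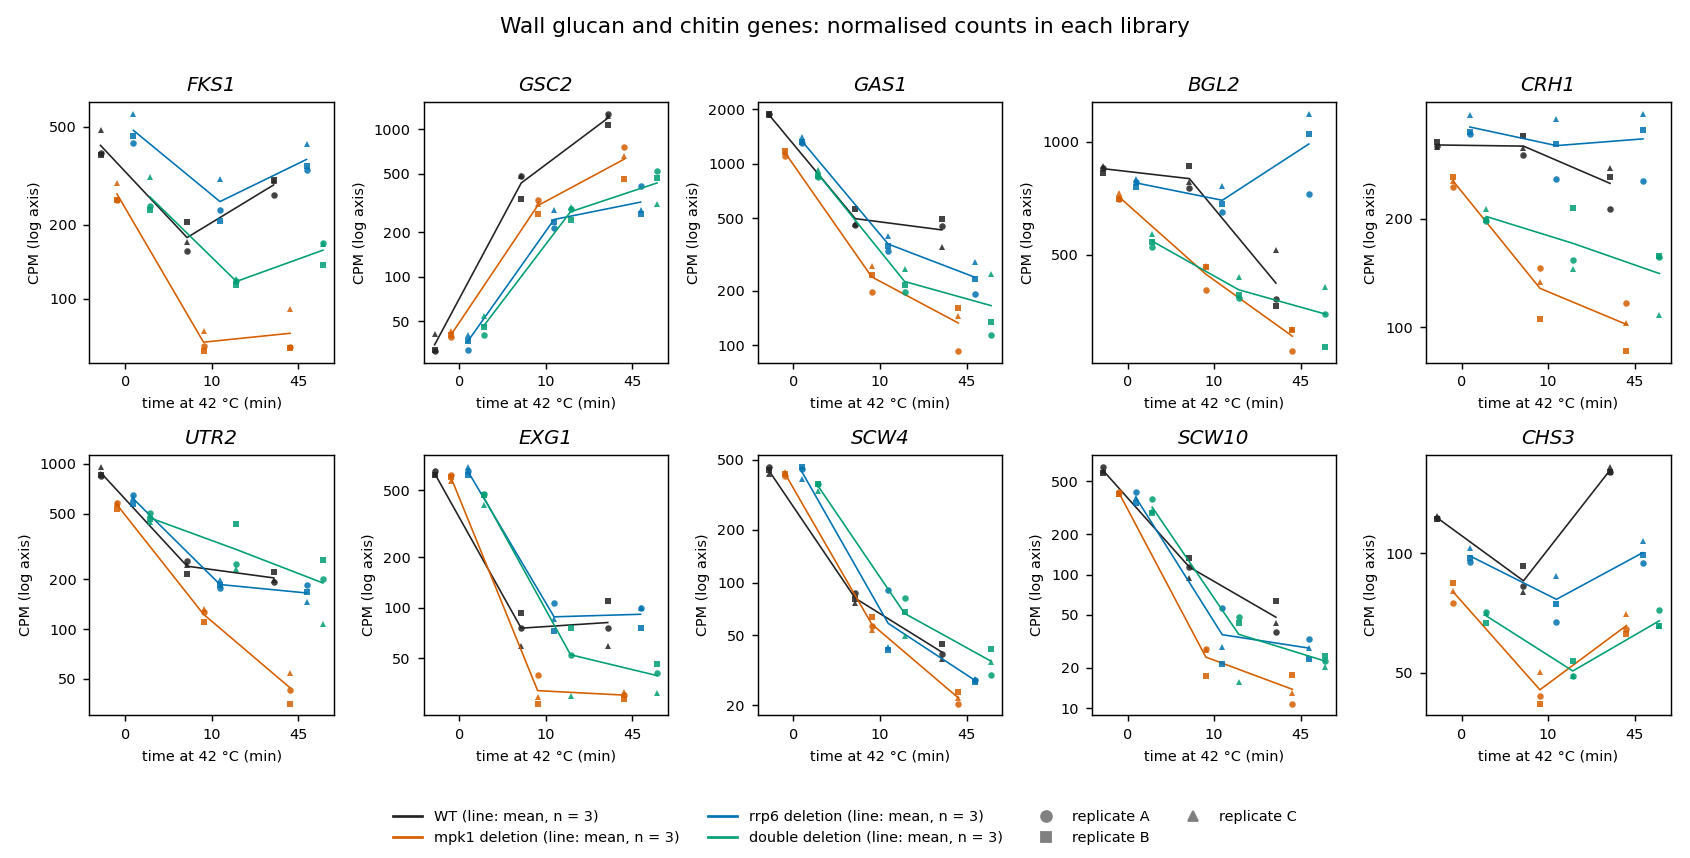
Normalised counts of the 10 wall genes in all 36 libraries, in CPM on a log axis that differs between panels, against time at 42 °C; points are libraries, with shapes for replicate letters, and lines join the means of 3. GSC2 climbs in every strain while EXG1, SCW4 and SCW10 drop in every strain, and the orange mpk1Δ points lie lowest among the strains for most genes after heat.

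Heat lowered most of these genes in WT and raised GSC2. At 10 min 7 members fell, where 36.2% of all genes tested were called lower, and GSC2 rose, where 38.3% were called higher. At 45 min 7 members fell, against 39.2% of all genes, and GSC2 and CHS3 rose, against 41% of all genes. The median log2 fold change of the members was -1.57 at 10 min and -1.56 at 45 min, beside 0.04 at both times over all genes. Scaling to total counts alone shifted the all-gene median by -0.37 (10 min) and -0.71 (45 min). The members then split into 1 higher and 9 lower at each time, and the share of higher calls among all called genes went from 51.4% to 37.5% at 10 min and from 51.1% to 32.8% at 45 min.

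On the TMM scale the other strains differed from WT in which members passed and, for BGL2 and CHS3 at 45 min, in direction. On total counts CHS3 fell in WT, at -0.33, and BGL2 in rrp6Δ stood at -0.30. The TMM-scale rise of BGL2 in rrp6Δ also missed without 1 of 5 of the 6 libraries. The differences between strains are tested further on. In mpk1Δ 9 members fell and GSC2 rose at each heated time, where 36.9% and 39.5% of all genes were called lower and 40.5% and 42.4% higher at 10 and 45 min. In rrp6Δ 7 members fell and GSC2 rose at 10 min, where 37.7% of all genes were called lower and 37.2% higher. At 45 min in rrp6Δ 6 members fell and GSC2 and BGL2 rose, where 39% were called lower and 40.5% higher. The double deletion had 8 members lower and GSC2 higher at each time, where 37.3% of all genes were called lower and 37.3% higher at 10 min, and 37.9% and 39.9% at 45 min. On total counts each of these strains had 1 member higher and 9 lower at both times, except rrp6Δ at 45 min with 1 higher and 8 lower. The share of higher calls among all called genes then went from 52.3% to 41.2% in mpk1Δ at 10 min, from 49.7% to 30.2% and 51% to 31.2% in rrp6Δ at 10 and 45 min, and from 50% to 30.9% and 51.2% to 33.7% in the double deletion. In rrp6Δ at 45 min FKS1, at -0.39, missed without unheated library C or heated library A or B and with DESeq2. In the double deletion UTR2 at 10 min, at -0.64, was -0.98 without library B and missed without library C, at -0.44, and CRH1 at 45 min, at -0.53, missed without library C.

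**Figure D2:**
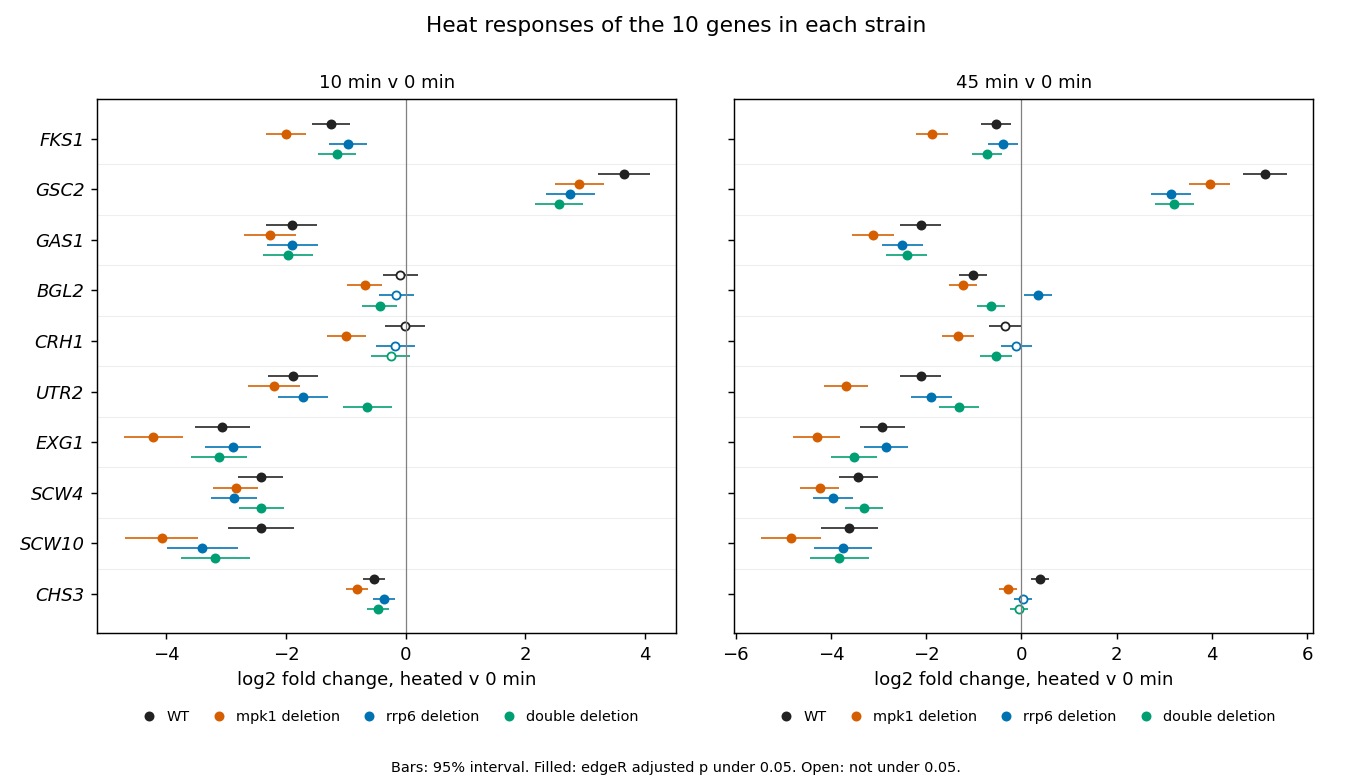
Log2 fold changes of the 10 genes against 0 min within each strain, at 10 min on the left and 45 min on the right; bars are 95% intervals and filled points passed the adjusted threshold. GSC2 alone lies far to the right in all 4 strains, and BGL2 at 45 min lies left of 0 in WT, at -1.01, and right of it in rrp6Δ, at 0.34.

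Between 10 and 45 min WT members moved in both directions, in shares near those of all genes. FKS1, GSC2 and CHS3 rose and BGL2, SCW4 and SCW10 fell, where 25% of all genes were called higher and 21.8% lower, and on total counts 2 were higher and 5 lower. In mpk1Δ 2 rose and 5 fell (25.6% and 26.4% of all genes), in rrp6Δ 3 rose and 2 fell (16.9% and 18.1%), and in the double deletion 3 rose and 2 fell (16.9% and 18.3%). Without letter C of the double deletion 2 rose and 4 fell, since FKS1 missed (0.39, adjusted p = 0.15) and GAS1 and SCW10 passed, at -0.73 and -0.95. On total counts the share of higher calls among all called genes went from 53.5% to 21.4% in WT, from 49.3% to 65.3% in mpk1Δ and from 48.2% to 34.6% in rrp6Δ. CHS3 rose in each of the 4 strains over this interval, by 0.93 ± 0.10 in WT and by 0.39 to 0.53 in the others, although in rrp6Δ it did not pass on total counts. UTR2 in the double deletion, at -0.67, did not pass without library B of 10 min or C of 45 min, and BGL2 in rrp6Δ, at 0.50, not without library A of 10 min or C of 45 min. The rrp6Δ calls of FKS1 and GAS1 and the mpk1Δ call of SCW10 also missed without any 1 of 2, 3 and 4 libraries, and in the double deletion FKS1 missed without any 1 of 5 and GSC2 without library A of 45 min.

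FKS1 (YLR342W, chromosome XII, 809997 to 815627, plus strand) encodes the main catalytic subunit of the glucan synthase. WT libraries A, B and C had 392, 383 and 485 CPM at 0 min, 157, 205 and 169 after 10 min, and 265, 305 and 300.5 after 45 min. All heated WT libraries lay below all unheated ones, and those of 45 min above those of 10 min. FKS1 fell by 1.25 ± 0.16 on the log2 scale at 10 min (edgeR adjusted p = 6.94e-08) and stood at -0.53 ± 0.16 at 45 min (adjusted p = 0.00404). In mpk1Δ the libraries had 252, 252 and 295 CPM at 0 min, 64.3, 61.2 and 73.9 after 10 min, and 63.2, 62.9 and 90.6 after 45 min. From 10 to 45 min the change was 0.71 ± 0.16 (edgeR adjusted p = 0.000733) in WT and 0.12 ± 0.17 (adjusted p = 0.568) in mpk1Δ, and the difference between these was not tested. On total counts the values were 0.36 (adjusted p = 0.0946) in WT and 0.27 (adjusted p = 0.206) in mpk1Δ.

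GSC2 (YGR032W, chromosome VII, 548264 to 553951, plus strand) encodes the alternative catalytic subunit, known as the form made under stress and in sporulation. Libraries A, B and C of WT had 31.3, 31.7 and 40.7 CPM at 0 min, 482, 335 and 482 after 10 min, and 1274, 1067 and 1235 after 45 min. The 3 times did not overlap, and the fit gave a 12.6-fold rise at 10 min (log2 3.65 ± 0.22, edgeR adjusted p = 3.98e-15) and a 34.6-fold rise at 45 min (5.11 ± 0.23, adjusted p = 4.63e-18). In mpk1Δ GSC2 had 38.8, 39.9 and 42.6 CPM at 0 min, 333, 268 and 309.7 after 10 min, and 762, 462 and 660.4 after 45 min. In rrp6Δ it had 32, 36.8 and 40 CPM at 0 min, 214, 237 and 283 after 10 min, and 415, 265 and 284 after 45 min. The double deletion had 40.4, 45.8 and 53.8 CPM, then 287, 243 and 298, then 524, 465 and 310.3. Every heated library of every strain thus lay above every unheated one. At 45 min, on the TMM scale, the highest library of each deletion strain lay below the lowest of WT. For mpk1Δ this depended on the scaling. On total counts its 45 min difference from WT was -0.16 (edgeR adjusted p = 0.368), and its heat response differed from that of WT by -0.55 (edgeR adjusted p = 0.0551). The 45 min rise was 15.5-fold in mpk1Δ, 8.85-fold in rrp6Δ and 9.28-fold in the double deletion.

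Because FKS1 fell while GSC2 rose, the composition of the pair changed. The share of GSC2 in the summed counts of GSC2 and FKS1, 2 genes of nearly equal length, went in WT from 7.59% ± 0.168 (SD, n = 3) at 0 min to 70.5% ± 7.41 at 10 min and 80.3% ± 2.51 at 45 min. In mpk1Δ the share was 13.2% ± 0.533, 82% ± 1.63 and 89.4% ± 2.52. In rrp6Δ it was 7% ± 0.413, 49.9% ± 3.05 and 46.3% ± 8.13, and in the double deletion 15.3% ± 1.16, 70.1% ± 1.7 and 72.7% ± 6.7. Shares were therefore higher in each strain lacking MPK1 than in its partner carrying it, at all 3 times. This ratio does not depend on how libraries are scaled.

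The MPK1 effect on the log2 ratio of paralog counts was tested with a two-sided exact permutation test that permutes MPK1 genotype within strains carrying and within strains lacking RRP6, over 400 arrangements, where the smallest p is 0.005, with adjustment over 9 tests. For GSC2 to FKS1 the ratio was higher without MPK1 by 1.08 at 0 min, 1.08 at 10 min and 1.36 at 45 min, with adjusted p = 0.009 by the exact test at each time. On the TMM scale both genes were lower without MPK1 after heat in the strains carrying RRP6, but on total counts GSC2 did not pass, at -0.26 (edgeR adjusted p = 0.193) at 10 min and -0.16 (adjusted p = 0.368) at 45 min. In the strains lacking RRP6, GSC2 was not called on the TMM scale after heat. On total counts it was higher there without MPK1 at 45 min, at 0.65 (edgeR adjusted p = 0.00763). The 2 coding sequences are 80.7% identical, their longest identical run is 38 bases, and they share none of 5639 stretches of 50 bases, so reads of that length have distinct positions in the pair.

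**Figure D3:**
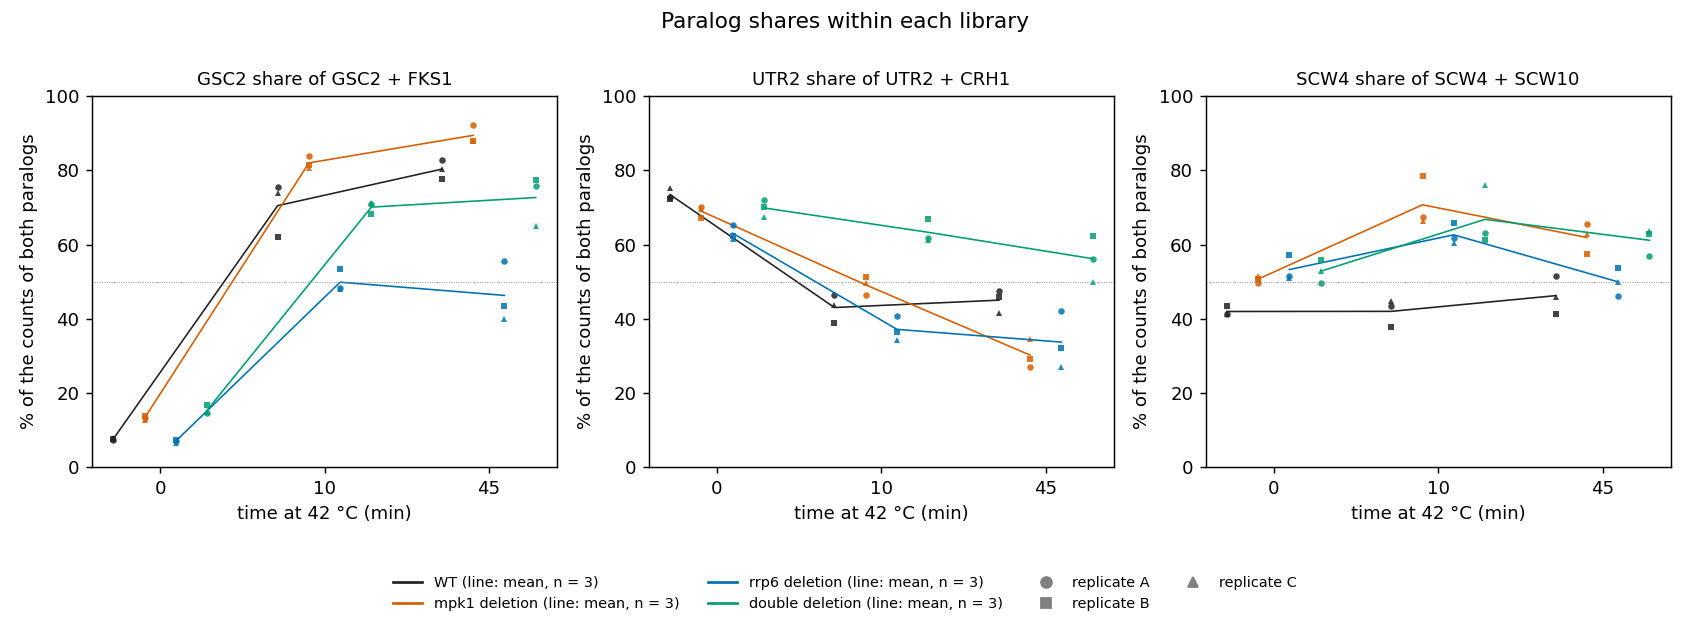
Share of the first-named paralog in the summed counts of each pair, in percent, by strain and time; points are libraries and lines join means of 3. The GSC2 share rises from under 20% to over 60% in all strains but rrp6Δ, whose means stay at 49.9% and 46.3%.

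GAS1 (YMR307W, chromosome XIII, 887003 to 888682, plus strand) encodes a membrane-anchored enzyme that lengthens glucan chains. WT libraries had 1883, 1878 and 1849 CPM at 0 min, 461, 567 and 468 after 10 min, and 455, 495 and 346 after 45 min. The fall was 3.75-fold at 10 min (log2 -1.91 ± 0.22, edgeR adjusted p = 3.68e-09) and 4.32-fold at 45 min. In mpk1Δ it was 8.65-fold at 45 min, to 92.9, 160 and 145 CPM, all below the WT libraries of that time. SCW10, FKS3 and GAS1 stand next to each other on chromosome XIII.

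BGL2 (YGR282C, chromosome VII, 1057783 to 1058724, minus strand) encodes an abundant wall protein that cuts and rejoins glucan. In WT it stood at 852, 827 and 863 CPM at 0 min and 751, 862 and 779 at 10 min, so those times overlapped, and at 382, 365 and 514 at 45 min. The change was -0.09 ± 0.15 (edgeR adjusted p = 0.605) at 10 min and -1.01 ± 0.15 (adjusted p = 4.97e-07) at 45 min. On total counts the 10 min value also passed, at -0.46 (edgeR adjusted p = 0.0237). In rrp6Δ it had 779, 756 and 797 CPM at 0 min, 651, 682 and 762 after 10 min, and 726, 1047 and 1185 after 45 min. Its 45 min levels overlapped the unheated ones in that strain, and the called rise of 0.34 ± 0.15 (edgeR adjusted p = 0.0367) was 0.19 (adjusted p = 0.272) without rrp6Δ library C and -0.30 on total counts. Without 1 of 4 other libraries it also did not pass. The double deletion had 348, 285 and 410.0 CPM at 45 min, where every library lay below every rrp6Δ library of that time.

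CRH1 (YGR189C, chromosome VII, 876669 to 878192, minus strand) and UTR2 (YEL040W, chromosome V, 78053 to 79456, plus strand) encode related enzymes that join chitin to glucan. In WT the levels of CRH1 were 318, 327 and 317 CPM at 0 min, 301, 339 and 315 after 10 min, and 214, 262 and 277 after 45 min. It did not pass at either time, at -0.01 ± 0.17 (edgeR adjusted p = 0.96) and -0.35 ± 0.17 (adjusted p = 0.058), though on total counts it passed at both, at -0.38 and -1.08. UTR2 in WT had 848, 854 and 964.5 CPM, then 259.6, 217 and 245, then 193, 222 and 198. Its heated and unheated libraries did not overlap, and it fell 3.69-fold at 10 min (edgeR adjusted p = 4.06e-09) and 4.34-fold at 45 min. Between these paralogs, heat in WT thus lowered UTR2 and not CRH1 past the threshold, and the UTR2 share of their summed counts went from 73.4% ± 1.58 to 43% ± 3.72 and 45% ± 3.04.

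UTR2 was lower in mpk1Δ than in WT at each time, and higher in the double deletion than in rrp6Δ at 10 min. The latter call missed without double-deletion library B, at 0.36 (edgeR adjusted p = 0.278), or without any single rrp6Δ library. In mpk1Δ UTR2 had 579, 535 and 584 CPM at 0 min, 127, 110.4 and 132 after 10 min, and 42.8, 35.5 and 54.2 after 45 min, a 12.8-fold fall at 45 min. In rrp6Δ it had 649.7, 572 and 621 CPM, then 178, 184 and 197, then 185, 167 and 145. The double deletion had 507, 465 and 444 CPM, then 248, 432 and 229.8, then 201, 261 and 108. At 45 min all mpk1Δ libraries lay below those of the other strains, and the double deletion spread widely around the rrp6Δ values. The MPK1 effect on the UTR2 to CRH1 ratio was 0.95 at 10 min (exact permutation test, adjusted p = 0.009), from 0.36 in strains carrying RRP6 and 1.55 in strains lacking it, and did not pass at 0 min (0.06, adjusted p = 0.67) or 45 min (0.22, adjusted p = 0.67). At 45 min this mean joins opposite differences, -0.93 in strains carrying RRP6 and 1.36 in strains lacking it.

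EXG1 (YLR300W, chromosome XII, 728955 to 730301, plus strand) encodes the main secreted exoglucanase. In WT it had 650.3, 621 and 624 CPM at 0 min, 75.4, 92.8 and 59.1 after 10 min, and 76, 110.0 and 59.5 after 45 min. This was the sharpest early fall among the members in WT, 8.37-fold at 10 min (log2 -3.06 ± 0.24, edgeR adjusted p = 1.14e-12), at the 1.84 percentile of all genes. In mpk1Δ it went from 616, 600.0 and 569.8 CPM to 40.0, 27 and 29.6 at 10 min, an 18.7-fold fall, and stayed at 30.3, 28.8 and 31.8 at 45 min. No heated mpk1Δ library reached the lowest heated WT library.

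SCW4 (YGR279C, chromosome VII, 1048798 to 1049958, minus strand) and SCW10 (YMR305C, chromosome XIII, 879063 to 880232, minus strand) encode related soluble wall proteins resembling glucanases. SCW4 in WT fell from 454, 438 and 418 CPM to 86.9, 81 and 76.4 at 10 min and 39.1, 44.7 and 36.7 at 45 min. SCW10 in WT fell from 644, 573 and 597 CPM to 113, 133 and 94.6 and then 36.9, 63.3 and 43.4. Both also fell between 10 and 45 min, by 1.0 ± 0.20 (edgeR adjusted p = 0.000165) and by 1.20 ± 0.29 (adjusted p = 0.00133). The 45 min fall in mpk1Δ was 18.8-fold for SCW4 and 28.7-fold for SCW10, which ended at 10.8, 17.7 and 12.9 CPM. The SCW4 share of the pair was higher without MPK1 after heat, by 1.03 on the log2 ratio at 10 min (exact permutation test, adjusted p = 0.045, and adjusted p = 0.121 with the replicate block) and by 0.79 at 45 min (adjusted p = 0.009). The 10 min mean joins 1.76 in strains carrying RRP6 and 0.29 in strains lacking it. At 0 min the effect was 0.24 (exact permutation test, adjusted p = 0.09) and did not pass, though it did without 1 of 2 of the 12 libraries. The 0 min mean joins 0.51 in strains carrying RRP6 and -0.03 in strains lacking it. The 10 min effect did not pass without double-deletion library C, at 0.867 (adjusted p = 0.09), or without rrp6Δ library A or C.

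CHS3 (YBR023C, chromosome II, 284428 to 287925, minus strand) encodes the catalytic subunit of the chitin synthase that makes most wall chitin. In WT it had 123, 122 and 124 CPM at 0 min, 82.5, 93 and 80.0 after 10 min, and 160.0, 160.3 and 165 after 45 min. It fell at 10 min by 0.53 ± 0.09 (edgeR adjusted p = 1.08e-05) and was 0.40 ± 0.10 above the unheated level at 45 min (adjusted p = 0.000394), but on total counts the 45 min value was -0.33 (adjusted p = 0.0111). In mpk1Δ it had 75.1, 84.2 and 80.2 CPM at 0 min, 43.8, 41.8 and 50.3 after 10 min, and 64.4, 62.5 and 70.3 after 45 min. Each of these libraries lay below every WT library of its time.

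MPK1 loss lowered these genes, more of them after heat than before. Unheated, 4 members were lower in mpk1Δ than in WT, namely FKS1, GAS1, UTR2 and CHS3, at -0.62 to -0.70, where 5.22% of all genes were called lower and 9.99% higher. FKS1 and CHS3 were the 2 that passed on total counts and whichever library was left out, and GAS1 and UTR2 did not pass without any 1 library. At 10 min all 10 were lower, where 22.3% of all genes were called lower and 22.6% higher, and at 45 min all 10 were lower, where 31.5% were lower and 29.9% higher. The median member difference was -0.46, -1.02 and -1.38 at 0, 10 and 45 min, beside medians over all genes of -0.01, 0.03 and 0.03. On total counts, which shifted the all-gene median by 0.16, 0.24 and 0.76, the members lower were 2, 8 and 7, and the share of higher calls among all called genes went from 65.7% to 91.7%, from 50.3% to 73.9% and from 48.7% to 85.3%.

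At 10 min SCW10 differed most, at -2.24 ± 0.30 (edgeR adjusted p = 1.03e-06), then FKS1 at -1.41 ± 0.17 and CRH1 at -1.31 ± 0.17. GSC2 at -0.51 ± 0.19 (adjusted p = 0.032) and SCW4 at -0.49 ± 0.19 (adjusted p = 0.0344) were the smallest and did not pass on total counts, on which they also missed at 45 min, at -0.16 and -0.11. GSC2 also missed without WT library A or C or mpk1Δ library B or C (largest adjusted p = 0.127), and SCW4 without WT library A or B or mpk1Δ library A or C (largest adjusted p = 0.107). At 45 min UTR2 differed by -2.21 ± 0.22 (edgeR adjusted p = 2.29e-09), FKS1 by -2.01 ± 0.17 (adjusted p = 1.27e-10) and SCW10 by -1.81 ± 0.31. BGL2 was least changed, at -0.47 ± 0.15 (adjusted p = 0.0084), and this call did not pass without WT library C, at -0.30 (adjusted p = 0.103), and turned to 0.31 (adjusted p = 0.115) on total counts.

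**Figure D4:**
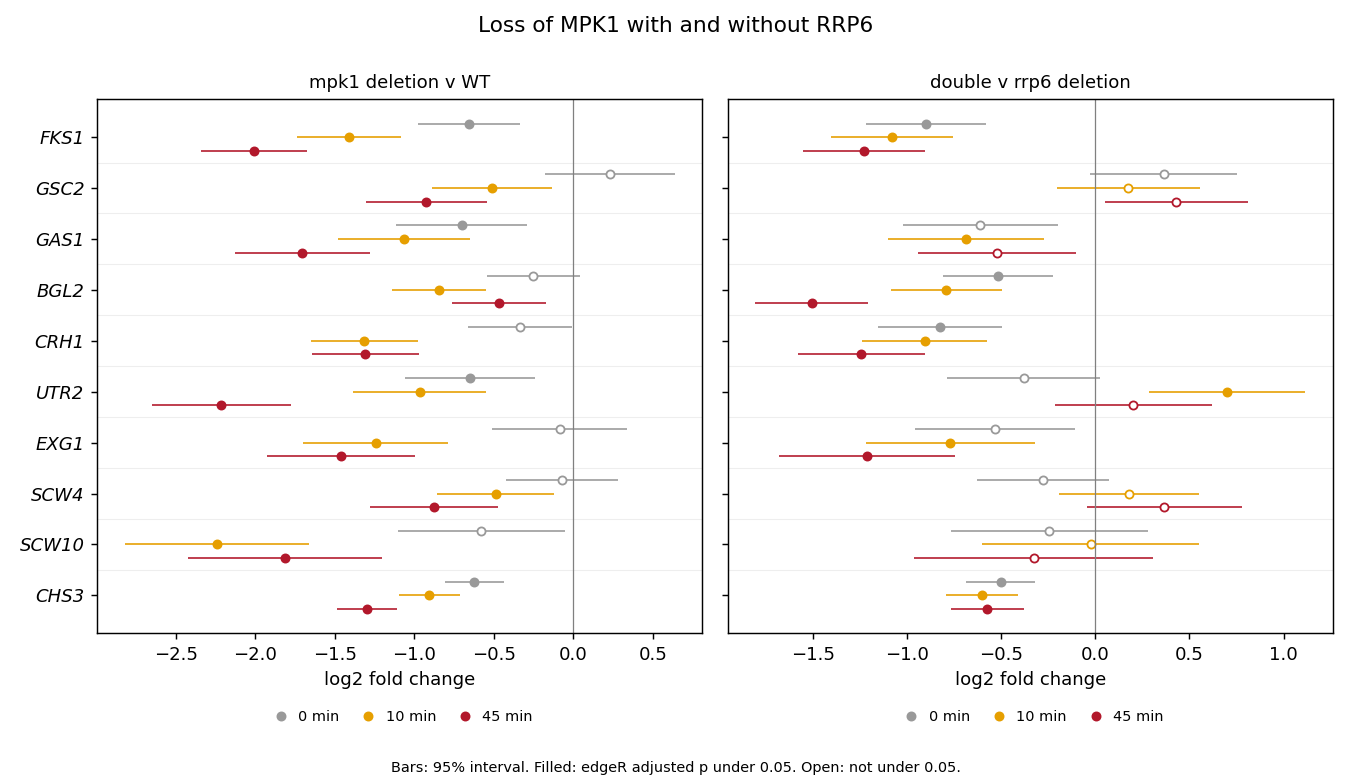
Log2 differences made by MPK1 loss for the 10 genes at 3 times, in strains carrying RRP6 (mpk1Δ against WT, left) and lacking it (double deletion against rrp6Δ, right); bars are 95% intervals and filled points passed the adjusted threshold. On the left all 10 genes lie left of 0 at 10 and 45 min; on the right FKS1, BGL2, CRH1, EXG1 and CHS3 have filled points left of 0 at both heated times, and UTR2 lies right of 0 at 10 min, at 0.70.

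The heat response itself differed between mpk1Δ and WT. At 10 min 5 members had a more negative response in mpk1Δ (FKS1, BGL2, CRH1, EXG1 and SCW10, from -0.59 to -1.66), where 13.3% of all genes were called lower and 7.98% higher. At 45 min 9 did, where 24.7% of all genes were lower and 17.5% higher, with UTR2 at -1.56 ± 0.30 (edgeR adjusted p = 0.00013), EXG1 at -1.37 ± 0.32, FKS1 at -1.35 ± 0.23 and GSC2 at -1.15 ± 0.28. On the TMM scale FKS1, EXG1 and SCW10 fell further at 10 min in mpk1Δ than in WT. BGL2 and CRH1 fell at 10 min in mpk1Δ and were not called in WT. At 45 min GSC2 rose less, CHS3 fell where it rose in WT, CRH1 fell where it was not called in WT, and the rest of the 9 fell further. On total counts the 45 min difference of CHS3 was -0.07 (edgeR adjusted p = 0.7445). BGL2 was the member not called at 45 min, at -0.22 ± 0.21 (edgeR adjusted p = 0.432). Total counts, which shifted the all-gene median by 0.60 at 45 min, left 2 members lower at 45 min and 3 at 10 min, and took the share of higher calls among all called genes at 45 min from 41.4% to 80.4%. The 45 min difference of SCW10 and SCW4 did not pass without WT library B, at -0.95 and -0.71. FKS1 at 10 min missed without mpk1Δ unheated library C or heated library B or either WT library B, and BGL2 at 10 min did not pass without any 1 of the 12 libraries.

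In the strains lacking RRP6, MPK1 loss lowered 4 to 6 members. Against rrp6Δ the double deletion was lower for FKS1, BGL2, CRH1 and CHS3 at 0 min, where 4.11% of all genes were called lower and 5.72% higher. At 10 min it was lower for FKS1, GAS1, BGL2, CRH1, EXG1 and CHS3, where 3.92% were, and higher for UTR2, where 4.79% were called higher. At 45 min it was lower for FKS1, BGL2, CRH1, EXG1 and CHS3, where 6.05% were, with 6.78% called higher. GAS1 at 10 min did not pass without 1 of 5 of the 6 libraries, nor BGL2 at 0 min without any 1 of the 6. On total counts the members lower were 3, 4 and 5, with 1 higher at each heated time, and total counts raised the share of higher calls among all called genes from 58.2% to 81.8%, from 55% to 82.2% and from 52.8% to 88.4%.

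FKS1, BGL2, CRH1 and CHS3 passed at all 3 times. FKS1 was lower without MPK1 in both backgrounds at all 3 times, by 0.66 to 2.01 against WT and by 0.90 ± 0.16, 1.08 ± 0.16 and 1.23 ± 0.17 against rrp6Δ. BGL2 had its clearest difference at 45 min, -1.50 ± 0.15 (edgeR adjusted p = 4.25e-08), at the 0.515 percentile of all genes and at -1.62 without letter C of the double deletion. UTR2 at 10 min, at 0.70 ± 0.21 (adjusted p = 0.0343), rested on double-deletion library B, without which it was 0.36 (adjusted p = 0.278), and also missed without any 1 of the rrp6Δ libraries. EXG1 at 10 min, at -0.77 ± 0.23 (adjusted p = 0.0323), was -0.46 (adjusted p = 0.191) without double-deletion library C and also missed without its library A or rrp6Δ library A or C. At 45 min GAS1 passed without letter C, at -0.91, and did not with it, at -0.52 (adjusted p = 0.103), and GSC2 went from 0.43 to 0.65 and passed.

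Between rrp6Δ and WT 1 member was called before heat, 3 at 10 min and 7 at 45 min. The counts at 0 and 10 min were near the shares of all genes called, given below. Unheated, CHS3 was lower in rrp6Δ than in WT at -0.32 ± 0.09 (edgeR adjusted p = 0.0193), where 4.64% of all genes were called lower and 9.32% higher. It did not pass on total counts, which took the share of higher calls from 66.8% to 91.7%, or without 1 of 5 of the 6 libraries. At 10 min FKS1 was higher, at 0.49 ± 0.16 (where 14.5% of all genes were called higher), and GSC2 and SCW10 were lower, at -0.82 ± 0.20 and -1.66 ± 0.29 (where 15.8% were called lower). FKS1 was 0.30 (adjusted p = 0.221) without rrp6Δ library C and did not pass without WT library A or C. At 45 min BGL2 and CRH1 were higher, where 21.7% of all genes were called higher, and GSC2, GAS1, SCW4, SCW10 and CHS3 were lower, where 24.7% were called lower.

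BGL2 stood 2.35-fold above WT at 45 min (log2 1.23 ± 0.15, edgeR adjusted p = 1.54e-07) and GSC2 stood 3.71-fold below it (-1.89 ± 0.20, adjusted p = 8.78e-09). Both kept their direction on total counts, at 1.50 and -1.65. CRH1, at 0.41 ± 0.17 (adjusted p = 0.0492), was at the threshold and missed it without 1 of 5 of the 6 libraries and with DESeq2. SCW4 (-0.55 ± 0.21) missed without WT library B or any 1 rrp6Δ library, and SCW10 (-0.81 ± 0.31) without WT library B or rrp6Δ library B or C. Total counts moved the split among members to 3 higher and 3 lower and the share of higher calls among all called genes from 46.7% to 66%. In the heat responses, rrp6Δ differed from WT for GSC2 at 10 min, at -0.90 ± 0.28 (edgeR adjusted p = 0.034), where 8.38% of all genes were called lower and total counts took the share of higher calls from 36.4% to 11.2%. At 45 min it differed for GSC2 at -1.97 ± 0.29 and CHS3 at -0.37 ± 0.13, where 19.6% were called lower, and for BGL2 at 1.36 ± 0.21, where 12.6% were called higher. For these responses the number of members called was near the share of all genes called at both times. The 10 min value of GSC2 missed the threshold without 1 of 8 of the 12 libraries, with adjusted p up to 0.0871, and CHS3 at 45 min without 1 of 5. CHS3 at 45 min also missed on total counts, at -0.30 (edgeR adjusted p = 0.183), and with only the libraries compared (edgeR adjusted p = 0.0534).

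**Figure D5:**
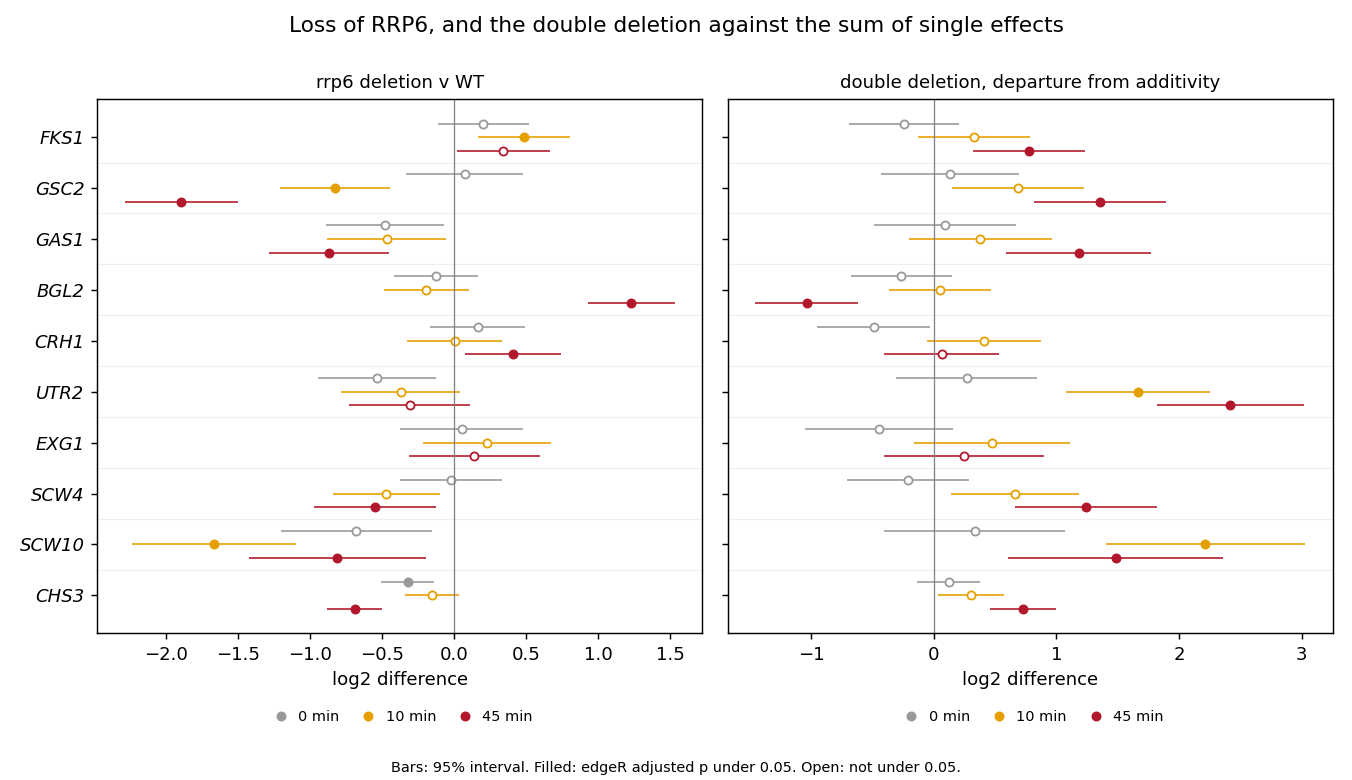
Log2 differences for the 10 genes at 3 times between rrp6Δ and WT (left) and how far the double deletion departed from additivity (right); bars are 95% intervals and filled points passed the adjusted threshold. At 45 min GSC2 lies at -1.89 and BGL2 at 1.23 on the left, and on the right UTR2 lies furthest from 0, at 2.42.

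The departure from additivity is the MPK1 effect in strains lacking RRP6 minus that in strains carrying it. At 0 min edgeR called 0 members and DESeq2 0, with 1 member at an unadjusted p under 0.05, where 0.166% of all genes were called higher and 0.864% lower. At 10 min UTR2, at 1.67 ± 0.30 (adjusted p = 0.00111), and SCW10, at 2.22 ± 0.41 (adjusted p = 0.00136), were called higher, where 10.2% of all genes were (6.63% lower), and on total counts the share of higher calls went from 60.5% to 47.7%. Without letter C of the heated double-deletion libraries they stood at 1.85 and 2.61, and EXG1 and SCW4 were called as well, at 0.78 and 0.86. At 45 min 7 members were called higher, where 21.5% of all genes were, and BGL2 was called lower, where 16.8% were.

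At 45 min UTR2 departed by 2.42 ± 0.31 (edgeR adjusted p = 1.02e-06), since it was lower without MPK1 by 2.21 in strains carrying RRP6 and stood at 0.20 ± 0.21 in strains lacking it. SCW10 departed by 1.48 ± 0.45, GSC2 by 1.36 ± 0.27, SCW4 by 1.24 ± 0.29 and GAS1 by 1.18 ± 0.30, while BGL2 went the other way, at -1.04 ± 0.21 (adjusted p = 0.000414). CRH1 and EXG1, lower without MPK1 in both backgrounds, departed by 0.06 ± 0.24 (adjusted p = 0.857; 95% interval -0.41 to 0.54) and 0.25 ± 0.33 (adjusted p = 0.585; -0.40 to 0.90). GAS1 was 0.77 (adjusted p = 0.0186) without double-deletion library C, and SCW10 did not pass without WT library B (1.22, adjusted p = 0.0541). Total counts shifted the all-gene median by -0.53 and left GSC2, UTR2 and BGL2 called, at 0.82, 1.85 and -1.59, with the share of higher calls among all called genes going from 56.1% to 15.6%.

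Across the 12 group means the members fell into a set that moved together and others that did not. GAS1 and SCW10 had the highest Pearson correlation of log2 CPM, 0.976, and GSC2 and SCW4 the lowest, -0.933. BGL2 and CRH1 correlated at 0.899, while CHS3 and GSC2 stood at -0.05. Among the 5458 genes averaging 5 CPM or more, the pattern most like that of GSC2 was TRE2 at 0.989, with MDS3 and PRB1 next. The nearest to BGL2 were CCW14 at 0.946, which encodes a wall glycoprotein, and CRH1. EXG1 was nearest to STE3 at 0.994, which encodes the pheromone receptor of alpha cells, SCW10 and GAS1 both to RKI1 at 0.995 and 0.988, SCW4 to TIF3 at 0.993, UTR2 to VIK1 at 0.97, FKS1 to RTT10 at 0.968, CHS3 to HSL1 at 0.951 and CRH1 to KIN2 at 0.923. These groups share the heat step and the libraries, so the values are descriptions only.

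The other 41 genes of glucan and chitin metabolism, all tested, moved in both directions after heat on the TMM scale. In WT 15 rose and 14 fell at 10 min, beside 38.3% and 36.2% of all genes, and 17 rose and 14 fell at 45 min, beside 41% and 39.2%, which are shares near those of all genes. On total counts 12 rose and 22 fell after 10 min, and 12 rose and 26 fell after 45 min. The genes named next kept their direction and their call on that scale. CHS1, which encodes the chitin synthase that repairs the septum, went from 124, 124 and 127 CPM to 959.8, 819 and 890.0 at 10 min and to 1804, 1823 and 1877 at 45 min (log2 3.87 ± 0.29, edgeR adjusted p = 3.29e-13). Among those that fell most were genes of daughter cell separation and the related SUN proteins, such as SCW11 at -2.72 ± 0.28 and SUN4 at -2.54 ± 0.16 at 10 min, and the chitinase gene CTS1 at -2.56 ± 0.29 at 45 min. SIM1, of the SUN family, fell at both times, at -2.33 ± 0.17 and -2.13 ± 0.18. CDA1, encoding a chitin deacetylase of spore walls, also rose at both times, to 18.1, 9.78 and 11.7 CPM at 45 min from 1.22, 0.803 and 0, a level of very few reads. NCA3 rose at 10 min, by 2.09 ± 0.46, and SPR1, a glucanase gene of sporulation, at 45 min by 2.53 ± 0.25. Both rose from few reads, NCA3 from 1.52, 3.86 and 3.92 CPM and SPR1 from 3.96, 3.21 and 3.92.

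Against WT, mpk1Δ had 2 of these 41 higher and 7 lower at 0 min (9.99% and 5.22% of all genes), 3 and 15 after 10 min (22.6% and 22.3%), and 8 and 18 after 45 min (29.9% and 31.5%). On total counts the numbers were 3 and 4, 6 and 8, and 22 and 5, so the balance at 45 min turned over with the scaling, while the genes named next kept their direction and call. CHS1 fell short of WT, with 410.0, 201 and 343 CPM at 10 min and 464.5, 243 and 444 at 45 min, at -1.49 ± 0.26 and -2.26 ± 0.27 (edgeR adjusted p = 4.17e-05 and 3.74e-08). All of its heated mpk1Δ libraries lay below all heated WT libraries. CTS1 was lower at 10 min, at -1.58 ± 0.28, SIM1 at both heated times, at -1.27 ± 0.18 and -1.67 ± 0.19, and CHS2, encoding the synthase of the primary septum, at 45 min, at -1.69 ± 0.25. CDA1 and NCA3 went the other way, at 1.55 ± 0.25 and 1.52 ± 0.33 at 10 min and at 1.68 ± 0.25 and 1.64 ± 0.36 at 45 min, as did BIG1, a glucan synthesis gene, at 0.96 ± 0.15 at 45 min. At 0 min GAS2, KRE6 and CRR1 were lower, at -1.26 ± 0.37, -0.67 ± 0.14 and -0.69 ± 0.19, and NCA3 and KRE1 higher, at 1.37 ± 0.48 and 0.42 ± 0.14. GAS2 and NCA3 rested on very few reads there. GAS2 had 1.61, 0.768 and 1.50 CPM in mpk1Δ and 3.35, 2.41 and 3.92 in WT, and NCA3 had 1.52, 3.86 and 3.92 in WT.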

How the data were processed

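Total RNA of 36 libraries in 12 groups of 3 was analysed. Per the submitters' processing notes, reads were aligned with HISAT2 2.1.0 to build R64 and counted with HTSeq, with no version or strand setting given in the sources used here. Each deposited file holds whole-number counts for 6600 open reading frames and 5 summary lines, which stayed out of library sizes and tests. Heat duration is labelled 0, 10 and 45 without a unit, and minutes were assumed.

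Genes were filtered with filterByExpr (minimum count 10, total 15, smallest group 3), scaled by TMM (factors 0.618 to 1.39) and fitted in edgeR 4.0.16 (R 4.3.3) with 1 coefficient per group, at a false discovery rate of 0.05 over 6017 genes in each of 28 comparisons. P-values of edgeR set a difference against the spread between libraries within groups, drawn from all 12 groups. Reads of each gene were counted once whatever its length, and no annotated gene overlaps a member. The analysis code was checked on simulated data. Promoter windows were cut from the reference genome, since no table of promoters was used here.

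The 10 members and all lists, tests and named-gene rules were chosen with earlier results of these data known. The text names all members, SLT2 and RRP6, and up to 3 other wall genes with the largest called rise and fall for WT heat and for mpk1Δ against WT, with a mean of at least 5 CPM. Alternatives were DESeq2 1.42.0, its size factors in edgeR, total counts, no low-count filter, only the libraries compared, the replicate letter as a block, dropping single libraries, and dropping letter C of the heated double deletion at both times. Same-letter libraries deviated together (every correlation over 0.1) in 5 of 21 comparisons of 2 groups, with 0.148, 0.448 and 0.437 for WT at 45 against 10 min and 0.198, 0.285 and 0.148 for mpk1Δ against WT at 45 min, and the block was run in all 28 as an alternative.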

Additional observations from a re-analysis of the deposited data

Results flagged for a closer look

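Each value here is a log2 difference between strains in the response to the same change, called by the test of that difference. The 10 min heat response was more negative in mpk1Δ than in WT for FKS1 (-0.76), BGL2 (-0.59), CRH1 (-0.98), EXG1 (-1.16) and SCW10 (-1.66). For FKS1, EXG1 and SCW10 this was a deeper fall, while BGL2 and CRH1 fell in mpk1Δ and were not called in WT. At 45 min the heat response was more negative for FKS1 (-1.35), GSC2 (-1.15), GAS1 (-1.0), CRH1 (-0.97), UTR2 (-1.56), EXG1 (-1.37), SCW4 (-0.81), SCW10 (-1.23) and CHS3 (-0.68). On the TMM scale this was a smaller rise for GSC2 and, for CHS3, a fall against a rise in WT. On total counts neither difference passed, at -0.55 for GSC2 and -0.07 for CHS3 (edgeR adjusted p = 0.0551 and 0.7445), and CHS3 fell in WT, at -0.33.

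The heat response differed between rrp6Δ and WT for GSC2 at 10 min (-0.90) and, at 45 min, for GSC2 (-1.97), BGL2 (1.36) and CHS3 (-0.37). The effect of MPK1 loss differed between strains lacking and carrying RRP6 for UTR2 (1.67) and SCW10 (2.22) at 10 min. At 45 min it differed for FKS1 (0.78), GSC2 (1.36), GAS1 (1.18), BGL2 (-1.04), UTR2 (2.42), SCW4 (1.24), SCW10 (1.48) and CHS3 (0.73).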

How the results depend on the processing

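Of 280 member values, DESeq2 changed the call of 3, no low-count filter 3 and DESeq2's size factors 5; fitting only the libraries compared changed 35 and total counts 49, and dropping letter C changed 9 of 70. Total counts reversed 4: CHS3 at 45 against 0 min in WT (-0.33) and rrp6Δ (-0.63), BGL2 in that comparison in rrp6Δ (-0.30) and BGL2 in mpk1Δ against WT at 45 min (0.31). Total counts gave 3 members called in rrp6Δ at 45 against 10 min, 2 in mpk1Δ and 0 in rrp6Δ against WT at 0 min, 3 and 2 in the mpk1Δ minus WT responses at 10 and 45 min, and 3 in the departure at 45 min. Fitting only the libraries compared gave 1 in the double deletion at 45 against 10 min, 7 and 4 in mpk1Δ and rrp6Δ against WT and 8 in the double deletion against rrp6Δ at 0 min, 1 in the latter at 10 min, and 2 and 1 in the departure at 0 and 10 min. With DESeq2's size factors the rrp6Δ minus WT response at 10 min had 0, and without both letter C libraries the departure at 10 min had 4. With the replicate block the counts of members called stayed within 1.5 times, 4 member values gained a call, and the SCW4 to SCW10 effect at 10 min, 1.03, no longer passed. Leaving out 1 library gave 2 to 4 members in the departure at 10 min, 4 to 6 in the double deletion against rrp6Δ at 10 min, 3 to 6 in the double deletion at 45 against 10 min, 3 to 5 in the mpk1Δ minus WT response at 10 min, 2 in mpk1Δ against WT at 0 min, 0 to 2 in the rrp6Δ minus WT response at 10 min, 0 to 1 and 4 to 6 in rrp6Δ against WT at 0 and 45 min, and 3 to 4 in rrp6Δ at 45 against 10 min. The SCW4 to SCW10 effect ranged from 0.197 to 0.299 at 0 min and from 0.867 to 1.12 at 10 min. The cause was not tested for any of these. The lowest count of a member was 51.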
